A study of Mus musculus with 14 samples.

Results

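The collagen genes are the 44 gene names of the mouse table that are built as Col, a type number, a and a chain number, out of 54955 gene names or unnamed IDs. Each of the 44 came from 1 row of the table. RNA was sequenced from adipose tissue of 14 C57BL/6 mice aged 21 weeks: 7 carry the genotype label KO-Dectin1 (KO, replicates 1 to 7) and 7 are wild type (WT, replicates 3 to 9). Dectin-1, the product of Clec7a, is a receptor of myeloid cells for fungal β-glucan. The comparison asks how loss of this receptor bears on adipose transcripts. The labels state neither the fat depot nor how the knockout was made, and nothing in them says whether it covers all tissues. Values are TPM, the authors' length-scaled share of each library's transcripts, so levels of different genes can be set side by side.

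Collagens are the main proteins of the extracellular matrix, built from alpha chains that wind around each other into a long helix. Fibrillar collagens assemble into the banded fibrils that give tissue its tensile strength. Type IV chains form the sheet-like network of basement membranes, and every adipocyte and capillary of fat is wrapped in one. The remaining families include the beaded filaments of type VI, which are prominent around fat cells, the fibril-associated (FACIT) collagens, and transmembrane collagens. In fat, fibroblast-like progenitors, endothelium, mural cells and adipocytes all make collagen, and accumulation of fibrillar and type VI collagen is a known feature of fibrotic fat.

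Of the 44 genes, 11 are fibrillar, 8 were placed with basement membranes (6 type IV chains and the multiplexins Col15a1 and Col18a1) and 25 are others. Genes were tested where 7 or more libraries reached 1 TPM, which kept 23 collagens: 8 fibrillar, 5 of basement membranes and 10 others. Passing this filter can depend on the group where a gene is high. Col11a2 reached 1 TPM in 5 KO-labelled and 2 WT libraries, and Col4a5 in 2 KO-labelled and 5 WT libraries, so counts and medians over the 23 describe those genes and not all collagens. None of the 44 was at 0 in every library.

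The tissue pieces differed in make-up before any collagen is considered. Summed over 5 B-cell markers (Cd79a, Cd79b, Ms4a1, Pax5, Cr2), 3 libraries (KO replicate 7 and WT replicates 4 and 7) held 2.13 to 5.55 TPM and the other 11 between 376 and 1519 TPM. The summed level of all collagens, the basement membrane share, and the main counts, medians and chain ratios are therefore also given without these 3. Clec7a stood at 4.02, 6.33 and 10.46 TPM (lowest, median, highest) in KO-labelled libraries, against 4.1, 12.49 and 18.86 TPM in WT libraries (log2 fold change -0.48 ± 0.33 SE, limma adjusted p = 0.59). Clec7a therefore leaves the genotype labels unchecked, and a gene-level value cannot show which exons were deleted; the groups are named below as the labels name them. Summed markers of adipocytes (10 of 10 genes tested) had medians of 30911 TPM in KO-labelled and 42253 in WT libraries, so the defining transcripts of fat were abundant in both.

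Collagens took a small part of the transcripts. The 44 genes together made 0.0878% ± 0.0377 of the TPM in KO-labelled libraries and 0.141% ± 0.0659 in WT libraries (SD, n = 7 each). Their summed level was lowest at 358 TPM, with a median of 902 and a highest value of 1401, in KO-labelled libraries, against 610, 1444 and 2558 TPM in WT libraries. Without the 3 libraries the sum averaged 791 ± 327 TPM in KO-labelled (SD, n = 6) and 1244 ± 516 TPM in WT libraries (SD, n = 5). The groups overlapped widely, with KO replicate 4 lowest and WT replicate 7 highest of all 14.

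The level was concentrated in few genes. The 13 collagens with a mean of 10 TPM or more held 97.1% of the collagen TPM. The lowest of these means was 18.5 TPM, and the highest mean among the other 31 genes was 5.29 TPM. The abundant 13 are 3 chains of type V (Col5a1, Col5a2 and Col5a3), both chains of type I, Col3a1, Col4a1, Col4a2, Col15a1, Col18a1, Col6a1, Col6a2 and Col6a3. Each of them varied 4.51-fold to 10.4-fold between its highest and lowest library.

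**Figure D1:**
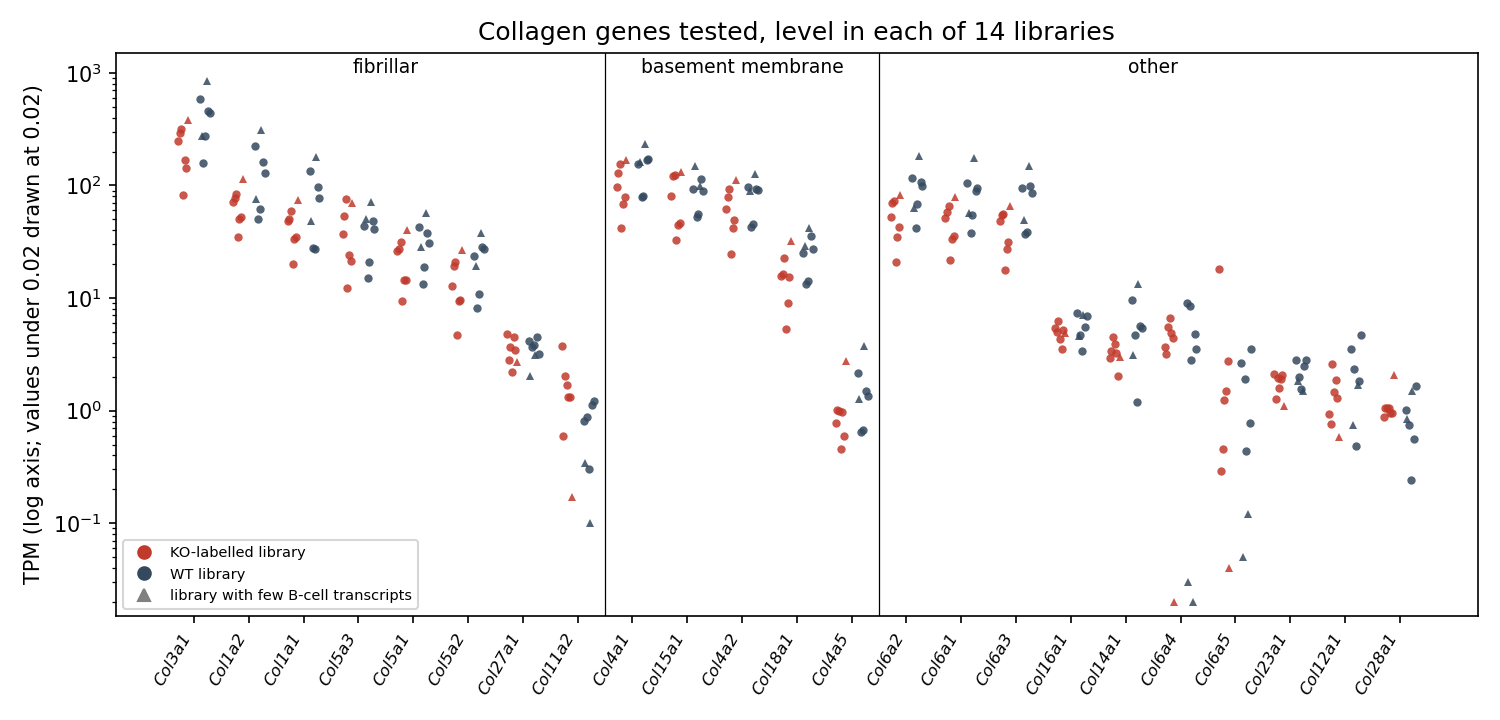
Level of each of the 23 tested collagens in every library, in TPM on a log axis, KO-labelled libraries left of WT libraries, by class; triangles are the 3 libraries with few B-cell transcripts. The 13 abundant genes stand above 4 TPM in all libraries, and only Col6a4 and Col6a5 have all 3 triangles below every circle.

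The variation was shared across the abundant genes. KO replicate 4 was the lowest library for 13 of these 13 genes, and WT replicate 7 the highest for 11, with KO replicate 3 highest for Col5a3 and WT replicate 4 for Col15a1. Several marker lists had their own extremes in these libraries. KO replicate 4 had the highest B-cell sum (1519 TPM) and the lowest adipocyte sum (14705 TPM), and its endothelial, mural and Schwann and nerve sums were also the lowest, at 307, 130.5 and 51.4 TPM. WT replicate 7 had the highest mural sum (633 TPM) and the highest Schwann and nerve sum (351 TPM). The sum of the 10 fibroblast and progenitor markers did not share these extremes. It was 568 TPM in KO replicate 4 and 892 TPM in WT replicate 7, lowest in WT replicate 4 and highest in WT replicate 3. Its members differed. Pdgfrb (7.47 and 36.27 TPM), Cd34 (20.46 and 92.01) and Ly6a (142.65 and 428.96) were lowest in KO replicate 4 and highest in WT replicate 7. F3 shared only the lowest library, and Pdgfra and Pi16 only the highest. Thy1 (216.9 and 27.88 TPM), Icam1, Cd55 and Dpp4 shared neither. Thy1 stood at 27.84, 15.19 and 27.88 TPM in KO replicate 7 and WT replicates 4 and 7, and at 97.39 TPM or more elsewhere. Icam1 stood at 8.53, 3.01 and 10.27 TPM there, against 20.22 TPM or more elsewhere. The sum therefore mixes members that run in different directions and is not a measure of fibroblast content. Over all libraries the sum of these 10 markers ranged over 407 to 685 TPM in KO-labelled and 333 to 939.8 TPM in WT libraries. The sum of the 6 mural markers ranged over 130.5 to 540.03 TPM in KO-labelled and 205 to 633 TPM in WT libraries. That of the 6 Schwann and nerve markers ranged over 51.4 to 219.8 TPM in KO-labelled and 63.8 to 351 TPM in WT libraries. Skeletal muscle markers (7 genes) ranged from 14.99 to 5511 TPM in KO-labelled libraries (median 91.95) and from 20.3 to 17966 TPM in WT libraries (median 1629). Whether these cell contents set the collagen levels was not tested. In bulk tissue, fewer cells of a type and less RNA per cell cannot be told apart.

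Fibrillar collagens made up the largest class. Their summed level was 434 ± 192 TPM in KO-labelled and 766 ± 425 in WT libraries (SD, n = 7 each). Col3a1, the homotrimeric chain of type III that mixes with type I in pliable tissue, was the most abundant collagen and ranked 347 by mean among the 14719 genes tested. Its lowest, median and highest values were 82.1, 249 and 379 TPM in KO-labelled libraries, against 157, 438 and 851 TPM in WT libraries. The values of 4 WT libraries (replicates 3, 7, 8 and 9) lay above all KO-labelled ones, and those of the other 3 lay inside the KO range. The difference in log2(TPM + 1), KO minus WT, given below as the log2 fold change, was -0.87 ± 0.39 (SE; limma adjusted p = 0.42).

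Type I collagen, the main protein of fibrils in most tissues, is built from Col1a1 and Col1a2. Col1a2 stood at 34.6, 71.5 and 114 TPM (lowest, median, highest) in KO-labelled libraries, against 50.2, 129 and 312 TPM in WT libraries. Its log2 fold change was -0.87 ± 0.39 (SE; limma adjusted p = 0.43). Col1a1 stood at 20.02, 48.2 and 74.5 TPM in KO-labelled libraries, against 27.1, 77.4 and 179.9 TPM in WT libraries, with a log2 fold change of -0.67 ± 0.42 (SE; limma adjusted p = 0.56). For both chains the groups overlapped, and the highest values belonged to WT replicates 7 and 3.

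Type V chains, minor components that nucleate fibrils, are given by gene. Col5a1 averaged 23.3 ± 11.1 TPM in KO-labelled and 32.7 ± 14.8 in WT libraries (SD, n = 7 each). Col5a2 averaged 14.8 ± 7.8 TPM in KO-labelled and 22.2 ± 10.4 in WT libraries. Their log2 fold changes were -0.48 ± 0.35 and -0.57 ± 0.38 (SE; limma adjusted p = 0.60 and 0.57). Col5a3 averaged 41.99 ± 24.8 TPM in KO-labelled and 41.4 ± 18.7 in WT libraries and had a log2 fold change of -0.07 ± 0.42 (SE; 95% interval -0.97 to 0.83). It was the most abundant type V transcript in both groups. Without the 3 libraries its log2 fold change was 0.03.

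Col27a1, a fibrillar chain of cartilage, averaged 3.45 ± 0.96 TPM in KO-labelled and 3.49 ± 0.81 in WT libraries (SD, n = 7 each; log2 fold change -0.02 ± 0.17 SE). Col11a2, another fibrillar chain known from cartilage, had the most positive fold change of the tested collagens, at 0.52 ± 0.28 (SE; limma adjusted p = 0.48). It passed the filter with 5 KO-labelled and 2 WT libraries at 1 TPM, so this place depends in part on the filter. Its lowest, median and highest values were 0.17, 1.32 and 3.75 TPM in KO-labelled libraries, against 0.10, 0.81 and 1.22 TPM in WT libraries. The remaining fibrillar genes Col2a1, Col11a1 and Col24a1 reached at most 0.03, 0.52 and 0.33 TPM. Col2a1 is the defining collagen of cartilage, and 5 cartilage markers summed to at most 1.76 TPM in any library.

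The promoters of a few abundant members are printed as a description, and no link between their letters and the transcript levels was tested. Sequences are from RefSeq (GRCm38.p6), 250 bases before to 50 after the annotated start, read 5′ to 3′ on the gene's strand; capitals mark CCAAT, or ATTGG where the motif lies on the other strand. Of the 44 genes, 35 matched that table. Col3a1 lies on the plus strand at chr1:45311288-45311587 and Col1a2 on the plus strand at chr6:4505368-4505667. Col4a1 lies on the minus strand at chr8:11312777-11313076 and Col4a2 on the plus strand at chr8:11312555-11312854.
Col3a1: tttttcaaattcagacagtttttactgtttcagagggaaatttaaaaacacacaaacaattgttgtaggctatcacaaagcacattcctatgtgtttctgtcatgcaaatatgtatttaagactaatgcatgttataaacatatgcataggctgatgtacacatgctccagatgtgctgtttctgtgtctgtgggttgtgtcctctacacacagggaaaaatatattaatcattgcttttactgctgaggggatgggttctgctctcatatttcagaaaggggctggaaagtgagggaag
Col1a2: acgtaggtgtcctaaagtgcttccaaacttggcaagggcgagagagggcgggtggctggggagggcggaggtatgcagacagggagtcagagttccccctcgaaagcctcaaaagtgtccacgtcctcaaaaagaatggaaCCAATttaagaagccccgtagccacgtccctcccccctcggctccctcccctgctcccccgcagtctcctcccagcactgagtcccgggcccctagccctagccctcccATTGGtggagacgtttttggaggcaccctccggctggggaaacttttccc
Col4a1: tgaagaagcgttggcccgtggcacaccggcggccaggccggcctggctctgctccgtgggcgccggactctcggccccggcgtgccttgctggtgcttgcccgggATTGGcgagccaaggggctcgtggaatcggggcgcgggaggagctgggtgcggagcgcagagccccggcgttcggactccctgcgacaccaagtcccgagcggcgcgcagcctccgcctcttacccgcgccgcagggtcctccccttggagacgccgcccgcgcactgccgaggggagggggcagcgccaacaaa
Col4a2: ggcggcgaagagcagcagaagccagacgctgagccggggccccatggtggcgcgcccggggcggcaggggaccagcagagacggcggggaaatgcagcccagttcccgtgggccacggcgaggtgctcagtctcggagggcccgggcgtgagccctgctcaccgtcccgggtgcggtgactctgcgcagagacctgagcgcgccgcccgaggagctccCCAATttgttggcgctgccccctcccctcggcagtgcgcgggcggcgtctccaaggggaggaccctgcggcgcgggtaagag

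Col4a1 and Col4a2 start from one shared region: the printed windows overlap by 78 bases, and the annotated starts lie 21 bases apart on opposite strands with the first bases of the transcripts overlapping. Reads from that overlap cannot be assigned to a gene without strand. The Col1a2 window holds 2 CCAAT motifs, those of Col4a1 and Col4a2 hold 1 each, and that of Col3a1 holds 0. CCAAT on either strand was in 34.2% of the 38 collagen windows, against 37.4% of all 32851 promoter windows of that length. The GC box GGGCGG, on either strand, was in 60.5% of the collagen windows and 35.7% of all windows. TATAAA, on either strand, was in 13.2% of the collagen windows and 13.6% of all windows. The Col1a2, Col4a1 and Col4a2 windows hold the GC box, and the Col3a1 window holds TATAAA and no GC box. None of these motifs contains another, though neighbouring matches may share letters, and a match is a description of letters only.

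Basement membrane collagens summed to 273 ± 128 TPM in KO-labelled and 356 ± 120 in WT libraries (SD, n = 7 each). Col4a1, the chief chain of the type IV network, stood at 41.7, 96.8 and 167 TPM (lowest, median, highest) in KO-labelled libraries, against 79.1, 162 and 234 TPM in WT libraries. Its log2 fold change was -0.55 ± 0.32 (SE; limma adjusted p = 0.52). Col4a2, its partner in the trimer, stood at 24.6, 61.8 and 111 TPM in KO-labelled libraries, against 42.7, 91.1 and 126 TPM in WT libraries, with a log2 fold change of -0.39 ± 0.33 (SE; limma adjusted p = 0.65). The ranges overlapped for both chains.

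Col15a1 and Col18a1 are multiplexins of the basement membrane zone; the end of Col18a1 is released as endostatin. Col15a1 stood at 33.1, 79.9 and 132 TPM in KO-labelled libraries, against 52.6, 93.3 and 149 TPM in WT libraries (log2 fold change -0.27 ± 0.34 SE; limma adjusted p = 0.74). It was the second most abundant gene of its class. Col18a1 stood at 5.33, 15.8 and 32.1 TPM in KO-labelled libraries, against 13.2, 27.5 and 41.8 TPM in WT libraries. Its log2 fold change of -0.71 ± 0.34 (SE; limma adjusted p = 0.45) was the most negative of the tested basement membrane genes.

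The minor type IV chains were near the limit of the table. Col4a5 averaged 1.08 ± 0.77 TPM in KO-labelled and 1.62 ± 1.07 in WT libraries (SD, n = 7 each). Col4a3, Col4a4 and Col4a6, known from kidney and other specialised membranes, reached at most 0.71, 1.49 and 0.61 TPM.

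The other collagens were led by type VI. Col6a2 stood at 20.8, 52.5 and 81.8 TPM (lowest, median, highest) in KO-labelled libraries, against 42.1, 97.9 and 182 TPM in WT libraries. Its log2 fold change of -0.83 ± 0.34 had the smallest p of the tested collagens (limma unadjusted p = 0.027, adjusted p = 0.40). Col6a1 stood at 21.9, 51.8 and 78.6 TPM in KO-labelled libraries, against 37.6, 89.97 and 174.6 TPM in WT libraries (log2 fold change -0.77 ± 0.33 SE; limma adjusted p = 0.41).

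Col6a3, whose cleaved end is the adipokine endotrophin, stood at 17.7, 48.4 and 66.2 TPM in KO-labelled libraries, against 36.7, 86.5 and 149.8 TPM in WT libraries (log2 fold change -0.82 ± 0.35 SE; limma adjusted p = 0.41). For each of these 3 chains 4 WT libraries lay above every KO-labelled one, and the others lay within the KO range. Averaged over the 14 libraries the 3 transcripts stood at 75.1 (Col6a2), 68.4 (Col6a1) and 61.2 TPM (Col6a3).

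Among the FACIT collagens, which coat fibrils, Col16a1 averaged 4.94 ± 0.85 TPM in KO-labelled and 5.63 ± 1.5 in WT libraries, and Col14a1 averaged 3.28 ± 0.77 TPM in KO-labelled and 6.15 ± 4.1 in WT libraries (SD, n = 7 each). For Col14a1 5 WT libraries lay above every KO-labelled one and WT replicate 6 lay below them all. Their log2 fold changes were -0.14 ± 0.17 (Col16a1) and -0.54 ± 0.33 (Col14a1), and that of Col12a1 was -0.35 ± 0.29 (SE). The transmembrane chain Col23a1 averaged 1.72 ± 0.40 TPM in KO-labelled and 2.14 ± 0.57 in WT libraries. Col28a1 averaged 1.15 ± 0.41 TPM in KO-labelled and 0.94 ± 0.5 in WT libraries. Among these 5 genes the limma adjusted p ran between 0.54 (Col14a1) and 0.73 (Col16a1).

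Of the 15 others that were not tested, Col8a1, Col9a3, Col13a1, Col6a6 and Col7a1 reached 1 TPM in at least 1 library, with highest values of 2.4, 1.59, 1.53, 1.12 and 1.04 TPM. Col20a1, Col9a2, Col17a1 and Col26a1 reached 0.90, 0.86, 0.84 and 0.70 TPM at most. Col22a1, Col9a1, Col10a1, Col8a2, Col19a1 and Col25a1 reached 0.48, 0.28, 0.21, 0.16, 0.03 and 0.03 TPM. Low values of this kind have 2 decimals in the table, so no fold change is given.

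Over the classes, no collagen passed the test: 0 of 23 had an adjusted p under 0.05 (limma, lowest 0.40), where 0.0204% of all 14719 genes passed, all of them lower. The groups did not overlap for 0 of the 23, against 0.319% of all genes. At an unadjusted p under 0.05, 5 collagens had lower values in the KO-labelled libraries (Col6a2, Col6a3, Col6a1, Col3a1 and Col1a2), against 6.74% of all genes in that direction, and 0 had higher values, against 4.67%. These genes vary together across libraries and are not 5 separate observations. Leaving out 1 library at a time, the count was 0 when that was replicate 4 or 5 of KO or 3 or 7 of WT. It was 1 for replicate 6 of KO or 8 or 9 of WT, and 8 for replicate 7 of KO or 5 or 6 of WT. For replicates 1, 2 and 3 of KO it was 4, 5 and 6, and for replicate 4 of WT it was 5. All of these were lower, except 1 collagen without KO replicate 2 and 1 without KO replicate 7. With libraries weighted by their fit (limma's array weights), 4 collagens passed, all lower (Col6a3, Col1a2, Col6a2 and Col14a1, adjusted p = 0.037 to 0.049), among 823 genes called in all.

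Fold changes were negative for 19 of the 23 (also 19 without the 3 libraries), against 45.4% of all genes tested. Many of these genes vary together across libraries, so the 19 are not separate observations. The median fold change was -0.53 for the 8 fibrillar, -0.39 for the 5 basement membrane and -0.28 for the 10 other collagens, against 0.04 over all genes. The log2(TPM + 1) scale understates the change of low genes, and most of the 10 others averaged under 10 TPM. The medians therefore do not rank the classes. By summed TPM, the KO-labelled mean over the WT mean was 0.567 (fibrillar), 0.765 (basement membrane) and 0.589 (other). The sum of the others was 171 ± 59 TPM in KO-labelled and 291 ± 137 in WT libraries (SD, n = 7 each). Without the 3 libraries the medians were -0.52, -0.37 and -0.32, against -0.01 over all genes, and 0 collagens passed (limma), with 5 lower at an unadjusted p under 0.05. In that fit the log2 fold changes were -0.87 for Col3a1, -0.85 for Col1a2, -0.83 for Col6a2 and Col6a3 and -0.77 for Col6a1.

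**Figure D2:**
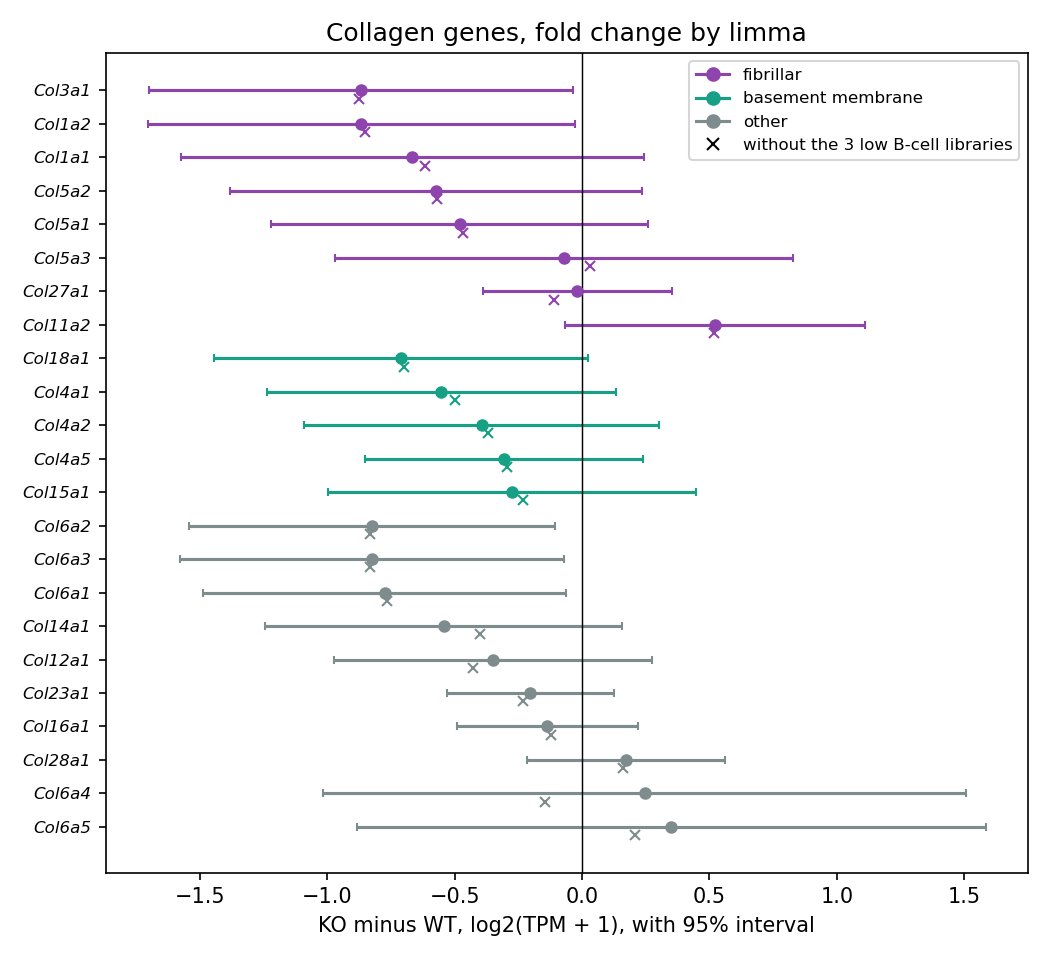
Log2 fold change of the 23 tested collagens (difference in log2(TPM + 1), KO minus WT), with 95% limma intervals; crosses are the fit over the 11 libraries rich in B-cell transcripts. Intervals of 5 genes (Col3a1, Col1a2, Col6a1, Col6a2 and Col6a3) lie wholly below 0 before adjustment, and none lies wholly above.

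The fibrillar and basement membrane shares spread more widely among WT libraries, while the share of the others had a similar SD in both groups. Fibrillar genes held 46.3% to 51.9% of the collagen TPM in KO-labelled libraries, against 44.7% to 59.2% in WT libraries. Basement membrane genes held 28.0% to 32.6% in KO-labelled libraries, against 19.8% to 38.7% in WT libraries. The others held 17.5% to 23.8% in KO-labelled libraries, against 16.5% to 23.8% in WT libraries. The mean fibrillar share was 49.1% ± 2.02 in KO-labelled and 52.4% ± 5.83 in WT libraries, and the mean basement membrane share 30.6% ± 1.92 in KO-labelled and 26.8% ± 6.43 in WT libraries (SD, n = 7 each). The other collagens averaged 20.3% ± 2.29 in KO-labelled and 20.8% ± 2.28 in WT libraries. Without the 3 libraries the basement membrane share was 30.4% ± 2.004 in KO-labelled (SD, n = 6) and 25.9% ± 3.62 in WT libraries (SD, n = 5). It then ranged over 20.8% to 30.9% in WT libraries. The SD of the share of the others was then 2.11 in KO-labelled and 1.52 in WT libraries. WT replicates 3 and 7 had the highest fibrillar and lowest basement membrane shares, and WT replicate 4 the reverse. No test was run on these sums and shares.

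**Figure D3:**
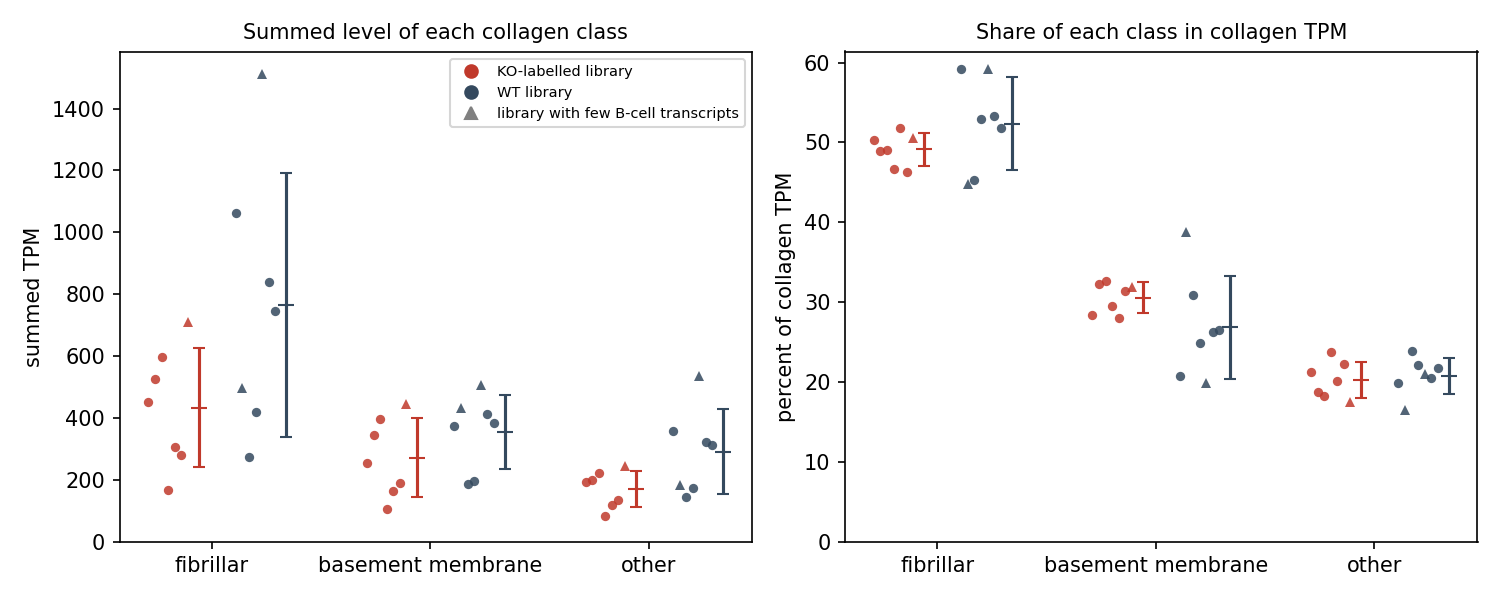
Summed TPM of each collagen class (left) and its percent of the collagen TPM (right) in every library, KO-labelled left of WT, with the mean and SD; triangles are the 3 libraries with few B-cell transcripts. Summed levels overlap in each class, and the shares in WT libraries spread more widely for fibrillar and basement membrane collagens.

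Chains that join in 1 trimer followed each other closely. Across the 14 libraries Pearson's r of log2(TPM + 1) was 0.984 for Col1a1 and Col1a2 (Spearman's rho 0.974), 0.97 for Col5a1 and Col5a2 (0.938), 0.988 for Col4a1 and Col4a2 (0.895), 0.99 for Col6a1 and Col6a2 (0.987) and 0.985 for Col6a1 and Col6a3 (0.982). Each permutation p was 2e-05 or less, where 1e-05 is the smallest that 100000 resamples can give, and adjusted over the 5 pairs it was at most 2e-05. Without the 2 libraries farthest from the median of the first gene r was 0.967, 0.946, 0.977, 0.984 and 0.969 in the same order of pairs. Over the 11 libraries rich in B-cell transcripts it was 0.976, 0.958, 0.989, 0.988 and 0.981. Both genes of a pair come from the same library and share its total, and how far other abundant genes correlate was not tested. Abundant collagens of different types also shared their extremes. KO replicate 4 was lowest for all 13 of them and WT replicate 7 highest for 11. The r values are therefore not shown to be particular to chains of 1 trimer. The other 3 pairs that were listed (Col4a3 with Col4a4, Col4a5 with Col4a6, Col8a1 with Col8a2) had a chain under the filter.

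The ratio of 2 chains within a library does not depend on the library's total. Its comparison between groups was added after the values were seen, for the same 5 pairs, by 2-sided exact permutation tests with adjustment over the 5. The p-values of these ratios are therefore descriptive. How often ratios of other gene pairs differ as much between the groups was not tested. Col1a1 over Col1a2 was 0.578, 0.657 and 0.699 (lowest, median, highest) in KO-labelled libraries, against 0.44, 0.596 and 0.632 in WT libraries. In 6 of 7 KO-labelled libraries the ratio lay above every WT library, KO replicate 4 being the exception, and the log2 ratio was higher in the KO-labelled libraries by 0.20 (exact permutation p = 0.0052, adjusted p = 0.013). Col4a1 over Col4a2 was 1.504, 1.61 and 1.69 in KO-labelled libraries, against 1.59, 1.81 and 1.89 in WT libraries. Here 6 of 7 WT libraries lay above all KO-labelled ones, WT replicate 3 being the exception, and the log2 ratio was lower in the KO-labelled libraries (difference -0.16, exact permutation p = 0.0029, adjusted p = 0.013).

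Over the 11 libraries rich in B-cell transcripts neither ratio passed (log2 differences 0.23 and -0.13, exact permutation adjusted p = 0.054 for both). The ratios of Col5a1 to Col5a2, Col6a1 to Col6a2 and Col6a1 to Col6a3 differed by 0.11, 0.05 and 0.05 on the log2 scale (exact permutation adjusted p = 0.51, 0.51 and 0.54). The make-up of the RNA differed alongside the 2 ratios that passed: gene models that GENCODE M21 classes as sense intronic or awaiting evidence took 0.0681% to 0.0917% of the TPM in KO-labelled libraries, against 0.0409% to 0.0632% in WT libraries. Its part in the ratios was not tested.

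**Figure D4:**
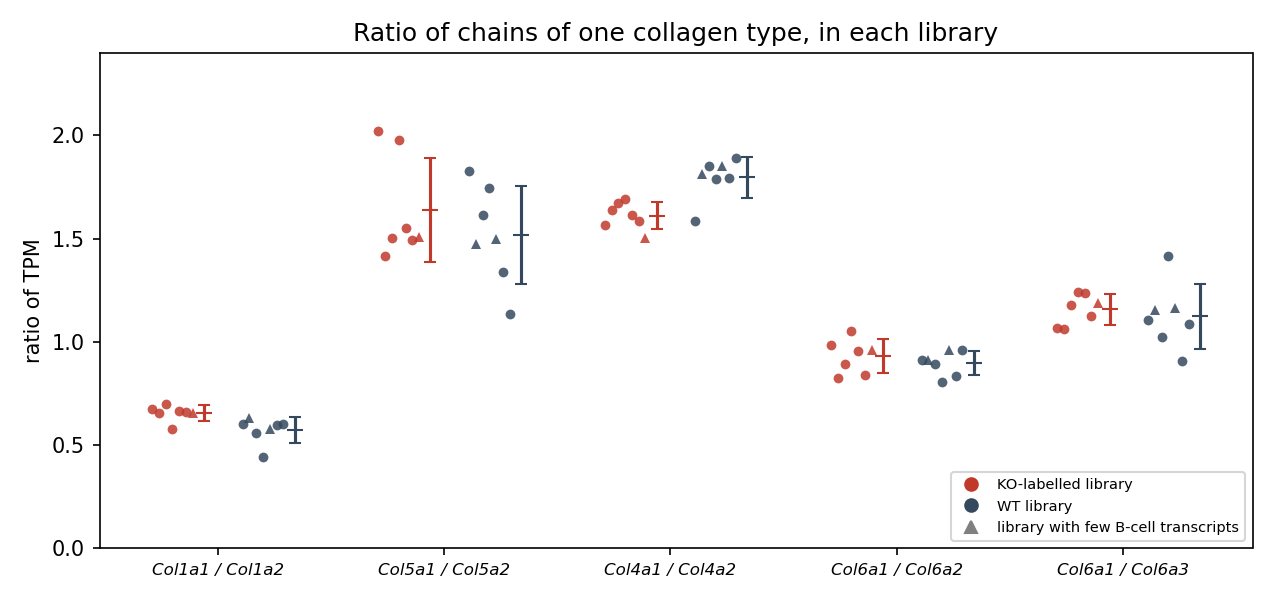
Ratio of the TPM of 2 chains in each library for 5 pairs, KO-labelled left of WT, with the mean and SD; triangles are the 3 libraries with few B-cell transcripts. Col1a1 over Col1a2 lies mostly higher and Col4a1 over Col4a2 mostly lower in KO-labelled libraries, and the groups overlap more widely for the other 3 pairs.

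In RefSeq's order (GRCm38.p6) 8 pairs of collagen genes lie next to each other, and their levels were not compared with those of other pairs. Col3a1 and Col5a2 lie side by side and averaged 335 and 18.5 TPM over the 14 libraries. Col6a1 and Col6a2 averaged 68.4 and 75.1 TPM, and Col4a1 and Col4a2 averaged 128 and 74.7 TPM. Col6a4 and Col6a5 averaged 4.08 and 2.43 TPM, and Col6a6, on the other side of Col6a5, averaged 0.504 TPM. Col4a5 and Col4a6 averaged 1.35 and 0.154 TPM, Col4a3 and Col4a4 averaged 0.289 and 0.547 TPM, and Col9a1 and Col19a1 averaged 0.0321 and 0.00786 TPM.

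A pair of collagens was near 0 in the 3 libraries with few lymphoid transcripts. Col6a4 and Col6a5, further type VI chains that lie next to each other, were the only tested collagens for which KO replicate 7 and WT replicates 4 and 7 all lay below the other 11 libraries, 2 of 23, against 13.7% of all genes tested. For 0 of the 23 did these 3 libraries lie above all others, against 5.72% of all genes. The 3 libraries were set apart by their B-cell markers, so these counts are a description without a test.

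Col6a4 was listed at 0 in KO replicate 7, 0.03 TPM in WT replicate 4 and 0 in WT replicate 7. It stood between 3.19 and 6.65 TPM in the other 6 KO-labelled libraries and between 2.83 and 8.96 TPM in the other 5 WT libraries. Col6a5 stood at 0.04, 0.05 and 0.12 TPM in the 3 libraries, with 0.29 to 18.3 TPM in the other KO-labelled and 0.44 to 3.55 TPM in the other WT libraries. Col9a2, which was not tested, showed the same order at 0 to 0.02 TPM against 0.04 to 0.86 TPM. Col11a2 was also low there, at 0.17, 0.34 and 0.10 TPM, but WT replicate 6 stood at 0.30 TPM.

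The log2 fold changes of Col6a4 and Col6a5 were 0.25 ± 0.59 and 0.35 ± 0.58 (SE; limma adjusted p = 0.87 and 0.80). Without the 3 libraries that of Col6a4 was -0.14. Without KO replicate 1, which held 18.3 TPM of Col6a5, that of Col6a5 was -0.13. Other marker lists differed in the same 3 libraries: 6 T-cell markers summed to 4.28 to 18.2 TPM there and to 187 to 702 TPM in the others, and 10 adipocyte markers to 63599 to 67616 TPM there and to 14705 to 61115 TPM in the others. Their part in the levels of Col6a4 and Col6a5 was not tested. Which cells carry these 2 transcripts cannot be read from bulk tissue.

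**Figure D5:**
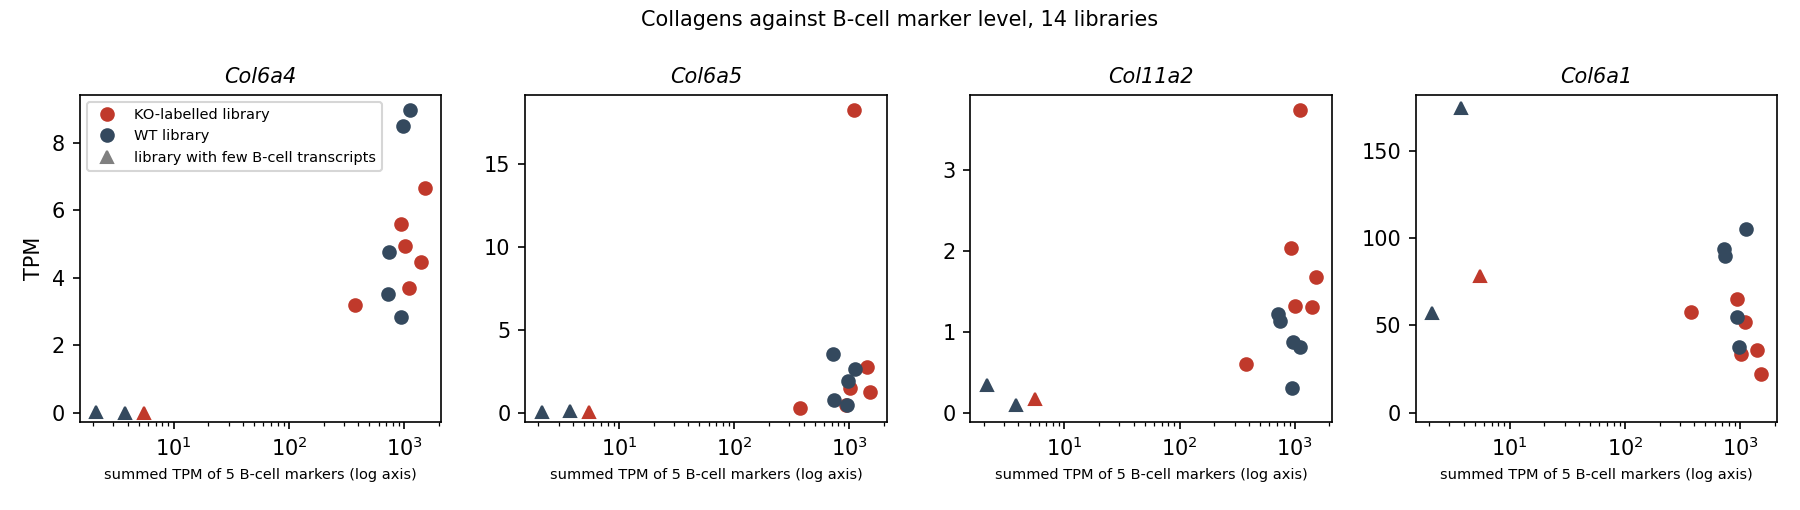
TPM of Col6a4, Col6a5, Col11a2 and Col6a1 against the summed TPM of 5 B-cell markers (log axis) in 14 libraries, KO-labelled in red and WT in dark blue, triangles for the 3 libraries with few B-cell transcripts. Col6a4 is at or near 0 in the triangles and 2.83 TPM or more in the circles, while Col6a1 spans 57.2 to 174.6 TPM in the triangles and 21.9 to 105 TPM in the circles.

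Genes that make, bind or neighbour collagen were read from the same fit, in 4 lists. Of the enzymes and chaperones of collagen biosynthesis, 27 of 32 were tested; 0 passed in either direction, 9 had lower and 0 higher values at an unadjusted p under 0.05, where 6.74% of all genes tested were lower and 4.67% higher, and the median log2 fold change was -0.36 (-0.39 without the 3 libraries). P4hb, a subunit of prolyl hydroxylase and a disulfide isomerase, averaged 159 ± 23 TPM in KO-labelled and 214 ± 25 in WT libraries (SD, n = 7 each; log2 fold change -0.44 ± 0.12 SE; limma adjusted p = 0.22). Pcolce, which enhances removal of the procollagen end, averaged 49.6 ± 13.8 TPM in KO-labelled and 98.7 ± 42.8 in WT libraries (limma adjusted p = 0.22). Its relative Pcolce2 averaged 5.31 ± 2.84 TPM in KO-labelled and 14.7 ± 11.3 in WT libraries, and Plod1, a lysyl hydroxylase, 25.97 ± 9.47 TPM in KO-labelled and 39.5 ± 7.08 in WT libraries. Pcolce, Pcolce2 and Plod1 were lowest in KO replicate 4 and highest in WT replicate 7, like most abundant collagens, and P4hb was not. The 9 are therefore not separate observations, and their count with 1 library left out is not given.

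Of the collagen receptors, 6 of 10 were tested, 0 passed and the median log2 fold change was -0.16 (-0.23 without the 3 libraries). The smallest p belonged to the discoidin receptors Ddr1 and Ddr2, the endocytic receptor Mrc2 and the integrin chain Itgb1, with log2 fold changes of -0.25, -0.19, -0.24 and -0.14 (limma, lowest adjusted p = 0.66). At an unadjusted p under 0.05 none of these 6 stood out in either direction (0 lower, 0 higher). Of the 16 fibril partners all were tested and 0 passed, with 2 lower (6.74% of all genes) and 0 higher (4.67% of all genes) at an unadjusted p under 0.05 and a median of -0.38 (-0.46 without the 3 libraries). The collagen-binding protein Sparc averaged 852 ± 384 TPM in KO-labelled and 1403 ± 509 in WT libraries, and fibronectin (Fn1) 22.05 ± 6.68 TPM in KO-labelled and 50.7 ± 33.9 in WT libraries. Podn, a leucine-rich proteoglycan, and Dpt, dermatopontin, had log2 fold changes of -0.64 ± 0.35 and -0.58 ± 0.32 (SE).

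Of the basement membrane partners, 16 of 18 were tested and 0 passed, with 2 lower (6.74% of all genes) and 0 higher (4.67% of all genes) at an unadjusted p under 0.05 and a median of -0.31 (-0.28 without the 3 libraries). The laminin chain Lama4 averaged 26.6 ± 12.7 TPM in KO-labelled and 47.3 ± 12.1 in WT libraries (SD, n = 7 each; log2 fold change -0.93 ± 0.31 SE; limma adjusted p = 0.30). Smoc1, a calcium-binding matrix protein, averaged 57.3 ± 32.7 TPM in KO-labelled and 94.7 ± 38.4 in WT libraries. The laminin chain Lamc1 and perlecan (Hspg2) had log2 fold changes of -0.49 ± 0.28 and -0.48 ± 0.29 (SE). Over the 23 tested collagens the median was -0.39.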

How the data were processed

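The members, classes and gene lists were chosen with earlier results of these data known. Per the labels' protocols, libraries were made with an Illumina TruSeq kit from 1 ug of total RNA. The submitters' processing notes list Bowtie 0.12.2, mm8 and mm9 without saying what each did; how the authors made the deposited TPM values, and whether strand was used, is not given in the sources used here. Each deposited TPM column sums to 1000000, so read depth is unknown and no counting interval is given. TPM of rows with the same name were summed (54955 names or IDs), and the 14719 genes that reached 1 TPM in 7 libraries were fitted on log2(TPM + 1) with limma 3.58.1 in R 4.3.3 (mean trend, robust prior, 2-sided, Benjamini-Hochberg over all genes tested). This scale understates the change of low genes. No pair of library columns is identical. Nothing says how the animals were bred or housed, so litter, cage or batch cannot be told apart from genotype. The p-values set the difference between groups against the spread among these libraries, taken as independent. Named in full were the 3 most abundant collagens of each class, the 6 of smallest p, and from each partner list the 4 of smallest p. Gene classes came from GENCODE M21 and promoters from RefSeq (GRCm38.p6); no protein sequences were used here. A marker of the B-cell list is not reported here and was left out of its sum. Chain pairs were correlated with scipy 1.17.1 and numpy 2.4.6, and figures were drawn with matplotlib 3.10.9.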

Additional observations from a re-analysis of the deposited data

Results flagged for a closer look

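In groups of 7 libraries, 6 values stood far from the rest of their group by the gap to the nearest library of the group relative to its range. Among the 64 groups examined, a rate of 1 in 20 would flag about 3.2. That rate assumes independent groups of normally distributed values. These genes vary together, and the sums and ratios are built from them, so 6 against 3.2 is not read as an excess. Col4a5 was 2.77 TPM in KO replicate 7, the next KO-labelled library being at 1.01 TPM. Col28a1 was 2.06 TPM in the same library, with the next at 1.06 TPM. In that library the keratin Krt19 stood at 25.9 TPM, against 0.17 to 0.52 TPM in the other KO-labelled libraries and 0.15 to 1.77 TPM in WT libraries; its part in these values was not tested. The other 5 genes of the mesothelium list were low there (Lrrn4 1.15, Upk1b 0.15, Wt1 0.05, Msln 0.03 and Upk3b 0 TPM). Col6a5 was 18.27 TPM in KO replicate 1, with the next at 2.77 TPM. The ratio of Col1a1 to Col1a2 was 0.5779 in KO replicate 4, with the next at 0.6533, and 0.4404 in WT replicate 6, with the next at 0.557. The ratio of Col4a1 to Col4a2 was 1.587 in WT replicate 3, with the next at 1.789.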

How the results depend on the processing

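Over 27 alternatives, 0 collagens passed except with array weights (4); the cause was not tested. Genes called numbered 3, all lower. The count was 1 with no filter or rows as deposited, 8 (5 lower, 3 higher) with median-ratio scaling, 19 (6 lower, 13 higher) with quantile normalization, 6 (4 lower, 2 higher) without mitochondrial genes, 823 (575 lower, 248 higher) with array weights, 0 in the replicate block of 10 libraries, 0 in the same 10 without the block, 0 over the 11 libraries rich in B-cell transcripts, and 0 to 6 with 1 library left out. Collagens at an unadjusted p under 0.05 numbered 2 without mitochondrial genes, 15 with array weights, 0 in the 10 libraries with no block, 6 with the block, and 0 to 8 with 1 library left out. The same-numbered libraries correlated at 0.112, -0.672, 0.597, -0.18 and 0.803 (replicates 3 to 7), so the numbers were not taken as pairs. Direction held in every setting for 19 of 23 collagens. For the other 4 the log2 fold change with 1 library left out ran from -0.28 to 0.17 (Col5a3), -0.0683 to 0.60 (Col6a4), -0.13 to 0.57 (Col6a5) and -0.11 to 0.0551 (Col27a1). Signs also turned over the 11 libraries for Col5a3 (0.0329) and Col6a4 (-0.14), with array weights for Col6a4 (-0.0368) and without mitochondrial genes for Col27a1 (0.0197). With type IV alone as the basement membrane class, its mean share was 19.6% in KO-labelled and 17.5% in WT libraries, and that of the others 31.3% in KO-labelled and 30.1% in WT libraries. With 1 library left out the mean shares in KO-labelled libraries ranged over 48.7% to 49.6% (fibrillar), 30.3% to 31.0% (basement membrane) and 19.7% to 20.7% (other), and those in WT libraries over 51.2% to 53.6%, 24.9% to 28.0% and 20.3% to 21.6% in the same order of classes. The log2 ratio of Col1a1 to Col1a2 differed by 0.139 to 0.229 and that of Col4a1 to Col4a2 by -0.186 to -0.14 with 1 library left out, both past the threshold each time. Without the 3 libraries they were 0.234 and -0.128 (exact permutation adjusted p = 0.054 for both), and in 5 pairs of shared number 0.219 and -0.139 (exact permutation adjusted p = 0.31, where 5 pairs allow no p under 0.0625); there the ratio of Col5a1 to Col5a2 turned to -0.0254. Ranges for the other ratios were 0.0454 to 0.16 (Col5a1 to Col5a2), 0.0209 to 0.0793 (Col6a1 to Col6a2) and 0.00328 to 0.11 (Col6a1 to Col6a3). TPM keeps no read counts, so the depth behind low collagens is unknown, and count models were not run.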
